A study of Mus musculus with 9 samples.

Results

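The cell cycle and DNA replication genes were followed in mouse liver RNA-seq as a set of 48 genes that act between the entry into the cycle and mitosis. They were chosen by gene symbol from the rows of the count tables, and all 48 were listed in both tables, among 17154 genes that the tables share. The mice were male C57BL/6. MMI mice were rendered hypothyroid over 20 days with 0.1% methimazole (MMI), a blocker of thyroid hormone synthesis, in their water, which by the study's methods also held perchlorate, a blocker of iodide uptake. MMI+T3 mice were such mice that then received triiodothyronine (T3), the active thyroid hormone, in 5 daily injections, with the liver taken 24 hours after the last one. CT mice had no treatment and were 8 to 12 weeks old. Each group had 3 libraries. The labels do not give the age of the MMI and MMI+T3 mice. The study's methods name mice of about 8 to 12 weeks, with age-matched animals or littermates assigned to the groups. Whether each library had a mouse of its own is not given in the sources used here, so the p-values measure only how far these libraries spread, which may be technical. Methimazole lowers thyroid hormone in the whole animal, so the groups differ in more than the liver.

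A cell enters the cycle when D-type cyclins with CDK4 or CDK6, and then cyclin E with CDK2, release the E2F transcription factors from the retinoblastoma protein. E2F factors switch on the genes that load the MCM helicase onto replication origins, supply deoxynucleotides and copy the DNA, and a later wave of genes under FOXM1 and the B-MYB complex drives mitosis. Hepatocytes of the adult liver rarely divide, but they can return to the cycle after tissue loss or exposure to a mitogen, and T3 is a known mitogen of the rodent liver.

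The libraries held between 17256776 and 22599227 counts. Pairs of replicates had chi-square values of 13 to 54.6 per degree of freedom, far above sampling noise, so each was counted as a library of its own. MMI replicate 3 had the fewest counts and the highest mitochondrial share, 4.991% against 3.291% to 3.76% in the other libraries. The hormone status of the groups showed in known T3 targets. Dio1, the type I deiodinase, ranged from 44.1 to 80.6 CPM (read counts scaled to the size of the library) in CT, from 3.13 to 4.67 CPM in MMI and from 858 to 947 CPM in MMI+T3. Thrsp, a lipogenic T3 target, was lower in MMI compared to CT and higher in MMI+T3 compared to MMI, with log2 fold changes of -1.71 and 4.68. Me1, the malic enzyme, was 144 to 174 CPM in MMI and 1230 to 1761 CPM in MMI+T3. The tissue carried the defining markers of liver, with Alb between 11616 and 25438 CPM across the 9 libraries.

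Most of the 48 genes were at low levels, which set what could be tested. Of the set, 27 genes had a mean under 5 CPM in every group and 18 a mean under 2 CPM, while 14 reached 10 CPM in at least 1 group. In the smallest library 1 count was worth 0.0549 CPM. Per kilobase of exon, the scale on which genes can be compared, Pcna, the sliding clamp of the replicative polymerases, had the highest mean level in CT with 15.2 CPM per kb, followed by Cdk4 with 11.5, Tk1 with 9.42 and Cdkn1b with 9.0 CPM per kb. The mitotic genes were at the other end. Mki67, which encodes the proliferation antigen Ki-67, had 0.166 CPM per kb in CT, Cdk1, the mitotic kinase, had 0.15 CPM per kb, and Ccnb1, its cyclin partner, had 0.0199 CPM per kb. Genes with too few counts for the test, which asked for about 10 counts in at least 3 libraries, were left out of it, so that 44 of the 48 were tested between MMI+T3 and MMI, 40 between MMI and CT and 45 between MMI+T3 and CT. Ccnb1, Cdc6 and Aurkb were tested in no comparison. Cenpe was not tested in the first, and Ccne1, Foxm1, Plk1, Ube2c and Cenpe were not tested between MMI and CT. A gene that entered a test only through the group where it was high was more likely to be called there. Of the genes called, these were Ccne1 in both comparisons with MMI+T3, and Ube2c and Uhrf1 between MMI+T3 and CT. Entry through 1 group also favours a fold change towards that group, whether or not the gene was called. The counts, signs and medians below thus describe the genes tested and not all 48.

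**Figure D1:**
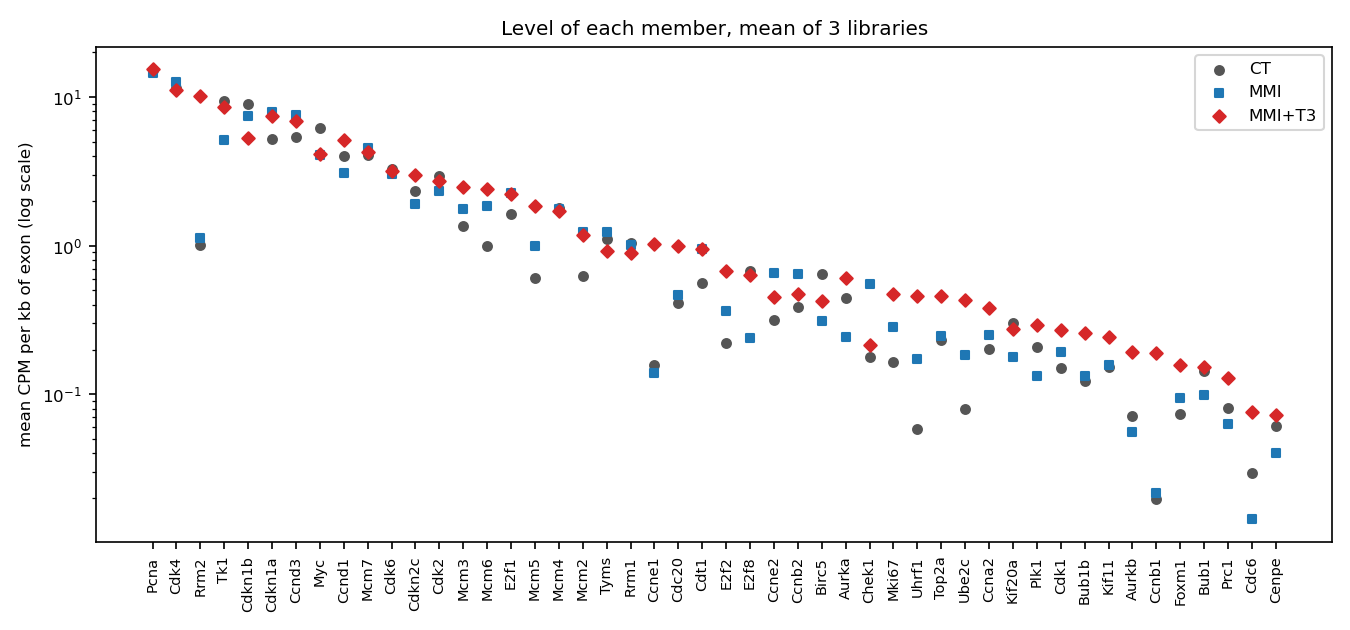
Mean level of each of the 48 genes in CPM per kb of exon (log axis), over the 3 libraries of CT (circles), MMI (squares) and MMI+T3 (diamonds), ordered by the highest group mean. Pcna and Cdk4 lie at the top in all groups, while Rrm2 moves from 1.13 CPM per kb in MMI to 10.2 CPM per kb in MMI+T3.

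The promoters of 5 of these genes are shown because the results turn on them: Rrm2, Ccne1 and Uhrf1 had the largest fold changes among the genes tested between MMI+T3 and MMI, and Mcm6 and Cdk1 stand for the replication and mitotic genes. Each line holds the 250 bases before the RefSeq start site (GRCm38.p6), 5′ to 3′, with capitals for E2F sites (TTTCCCGC, TTTGGCGC, TTTCGCGC or TTTGCCGC), the cell cycle homology region bound by the mitotic gene complexes (TTTGAA) and the CCAAT box (CCAAT), on either strand. In the Mcm6 promoter 1 run of capitals holds overlapping E2F matches.
Rrm2 promoter, chr12:24708004-24708253, plus strand: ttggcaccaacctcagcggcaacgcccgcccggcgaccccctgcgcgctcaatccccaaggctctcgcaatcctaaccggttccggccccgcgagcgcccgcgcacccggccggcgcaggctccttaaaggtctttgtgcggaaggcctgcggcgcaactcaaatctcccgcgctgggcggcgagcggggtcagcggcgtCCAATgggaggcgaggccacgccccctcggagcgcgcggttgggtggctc
Ccne1 promoter, chr7:38107491-38107740, minus strand: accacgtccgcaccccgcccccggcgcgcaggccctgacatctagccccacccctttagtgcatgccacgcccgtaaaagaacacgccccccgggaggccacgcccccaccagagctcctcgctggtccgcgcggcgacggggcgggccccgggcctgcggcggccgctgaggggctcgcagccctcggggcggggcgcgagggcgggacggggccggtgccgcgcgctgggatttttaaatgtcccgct
Uhrf1 promoter, chr17:56303087-56303336, plus strand: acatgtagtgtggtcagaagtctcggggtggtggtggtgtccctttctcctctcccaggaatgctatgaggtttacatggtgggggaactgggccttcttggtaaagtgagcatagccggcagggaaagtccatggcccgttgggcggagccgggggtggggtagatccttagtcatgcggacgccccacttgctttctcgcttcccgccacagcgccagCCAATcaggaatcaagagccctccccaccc
Mcm6 promoter, chr1:128359706-128359955, minus strand: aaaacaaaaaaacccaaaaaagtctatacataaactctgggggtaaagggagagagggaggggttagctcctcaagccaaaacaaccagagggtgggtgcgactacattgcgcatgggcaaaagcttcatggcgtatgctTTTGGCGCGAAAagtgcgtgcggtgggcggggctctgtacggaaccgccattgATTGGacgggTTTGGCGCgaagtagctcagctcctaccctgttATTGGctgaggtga
Cdk1 promoter, chr10:69352913-69353162, minus strand: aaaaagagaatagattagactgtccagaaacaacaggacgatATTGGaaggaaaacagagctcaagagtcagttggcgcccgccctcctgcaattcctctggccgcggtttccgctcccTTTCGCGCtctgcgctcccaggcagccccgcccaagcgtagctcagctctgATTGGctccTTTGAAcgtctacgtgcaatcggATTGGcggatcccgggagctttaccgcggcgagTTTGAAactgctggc

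Of the 48 genes, 40 matched an entry of the RefSeq promoter table. For each of the 40 only the entry nearest the gene start was used. The 32851 promoters were all entries of that table, without such a choice, so the shares below cover unlike sets. An E2F site of these letters lay in 6 of the 40 (15.0%), namely Cdc6, Cdk1, Cdk2, Mcm5, Mcm6 and Mcm7, compared to 1.86% of all 32851 promoters. A CCAAT box lay in 27 (67.5%) compared to 33.8% of all promoters, and the letters TTTGAA in 9 (22.5%) compared to 16.0%. AGGTCA, the core recognized by nuclear receptors such as those for thyroid hormone, lay in 5 (12.5%) compared to 14.0% of all promoters. The Rrm2 and Uhrf1 windows held 1 CCAAT box each and no E2F letters, the Ccne1 window held none of the marked motifs, and the Mcm6 window held 3 E2F matches. These matches describe the letters in the windows only.

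The first question was what T3 did to these genes in hypothyroid liver. Compared to MMI, 5 of the 44 genes tested were higher in MMI+T3 (11.4%) and 0 were lower, by the quasi-likelihood test of edgeR, adjusted over all genes tested after Benjamini and Hochberg at a threshold of 0.05. Of all 14109 genes tested in that comparison, 9.83% were higher and 7.18% lower, so the share of higher genes in the set was near that of the transcriptome. The 5 genes were Rrm2, Ccne1, Uhrf1, Tk1 and Ccnd1, of which Ccne1 entered the test only through MMI+T3. At an unadjusted p under 0.05, 14 of the 44 were higher and 3 lower, compared to 4226 of all 14109 genes tested in either direction. DESeq2 called 7 higher and 2 lower, adding Mcm5 and E2f8 above and Cdkn1b and Chek1 below, and limma-voom called 5 higher and Cdkn1b lower. The median log2 fold change of the 44 genes was 0.52, compared to -0.02 over all genes tested. The 3 libraries of MMI+T3 lay above all 3 of MMI for 9 of the 44 genes (20.5%), compared to 19.1% of all genes.

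Between MMI and CT, 2 of 40 genes tested were higher in MMI (Mcm2 and Mcm6) and 1 was lower (Tk1). Of all 13925 genes tested, 2.48% were higher and 2.8% lower. All MMI libraries lay above all CT libraries for 10 of the 40 (25%), compared to 11.9% of all genes. Between MMI+T3 and CT, 12 of 45 were higher (26.7%) compared to 13.3% of all 13847 genes tested, and 1, Cdkn1b, was lower, compared to 12.3% of all. Of the 12, Ccne1, Ube2c and Uhrf1 entered the test only through MMI+T3. The libraries of MMI+T3 lay above all of CT for 16 of the 45 (35.6%), compared to 22.2% of all genes. The median log2 fold change was 0.16 between MMI and CT and 0.45 between MMI+T3 and CT, compared to 0.01 over all genes in each. The CT libraries were deposited in a table of their own, so in both comparisons with CT a difference between groups cannot be told apart from one between tables. The 3 comparisons also share libraries and are not independent of each other. Over all 3 comparisons, 15 of the 48 genes passed at least once by edgeR with all libraries of the groups compared and 33 did not, and DESeq2 also called Chek1, E2f8 and Cdc20.

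**Figure D2:**
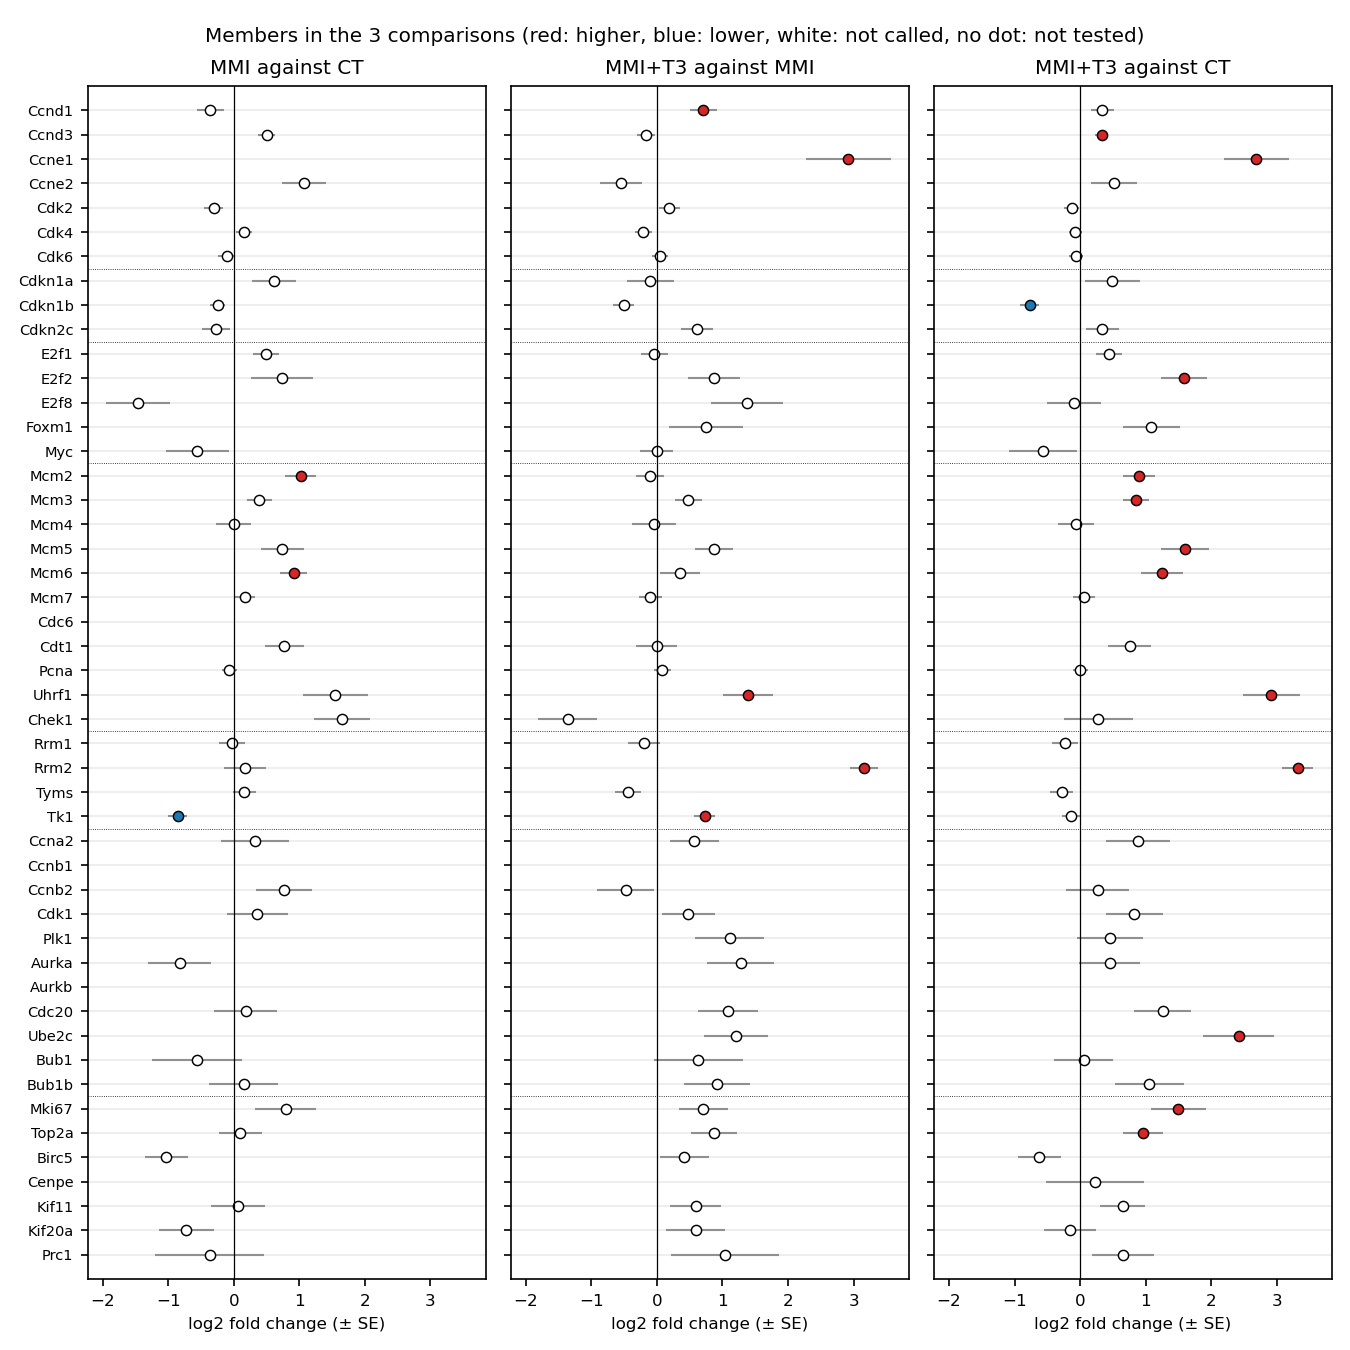
Log2 fold change with its standard error for each of the 48 genes in the 3 comparisons, grouped by role from G1 cyclins (top) to mitotic structure (bottom). Red dots passed the test as higher, blue dots as lower, white dots did not pass, and a missing dot was not tested. The 5 red dots between MMI+T3 and MMI lie among the G1 cyclins, replication and nucleotide genes, and none lies among the mitotic genes.

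The smallest adjusted p between MMI+T3 and MMI fell to a gene of nucleotide supply. Rrm2 encodes the small subunit of ribonucleotide reductase, the enzyme that makes deoxynucleotides, and lies at chr12:24708241-24714146 on the plus strand (GRCm38). Its level was 2.1, 2.25 and 4.05 CPM in the CT libraries, 2.49, 3.3 and 3.57 CPM in the MMI libraries and 22.3, 30.4 and 32.0 CPM in the MMI+T3 libraries. Every T3 library was thus several times above every other library, while CT and MMI overlapped. Rrm2 was 8.94-fold higher in MMI+T3 than in MMI (log2 3.16 ± 0.21 SE, adjusted p = 4.24e-06) and 10-fold higher than in CT (log2 3.32 ± 0.24, adjusted p = 7.83e-06). Between MMI and CT its log2 fold change was 0.17 ± 0.32 (adjusted p = 0.815). The Rrm1 gene for the large subunit of the same enzyme did not pass in any comparison, with 8.35 to 13.7 CPM in MMI and 6.91 to 11.7 CPM in MMI+T3 (log2 fold change -0.2 ± 0.24).

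Tk1 encodes thymidine kinase, which salvages thymidine, and lies at chr11:117815526-117826092 on the minus strand. It stood at 51.7, 41.4 and 53.9 CPM in CT, at 30.3, 25.3 and 24.3 CPM in MMI and at 50.4, 36.1 and 47.8 CPM in MMI+T3. The MMI libraries lay below all others, and CT and MMI+T3 overlapped. It was 1.82-fold lower in MMI than in CT (log2 -0.86 ± 0.14, adjusted p = 0.00561) and 1.66-fold higher in MMI+T3 than in MMI (log2 0.73 ± 0.16, adjusted p = 0.00881). Exons of Tk1 overlap those of Afmid on the other strand, and the strand setting of the counting is not given in the sources used here, so reads of the overlap cannot be assigned. Afmid itself had a log2 fold change of -0.18 between MMI+T3 and MMI (adjusted p = 0.525). Like Tk1, Afmid had all MMI libraries below all CT libraries, though it was not called there (log2 -0.43, adjusted p = 0.169). Unlike Tk1, its level after T3 stayed below that of CT, and this difference passed (log2 -0.62, adjusted p = 0.00114). The share of the overlap in either Tk1 call was not tested. Tyms, the thymidylate synthase, was 6.57 to 8.48 CPM in MMI and 5.11 to 6.37 CPM in MMI+T3, with groups that did not overlap but no call (adjusted p = 0.165). Summed over the 4 nucleotide genes, the level was 70.1 ± 6.47 CPM (SD, n = 3) in CT, 48.4 ± 4.47 CPM in MMI but 88.4 ± 4.13 CPM in MMI+T3.

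**Figure D3:**
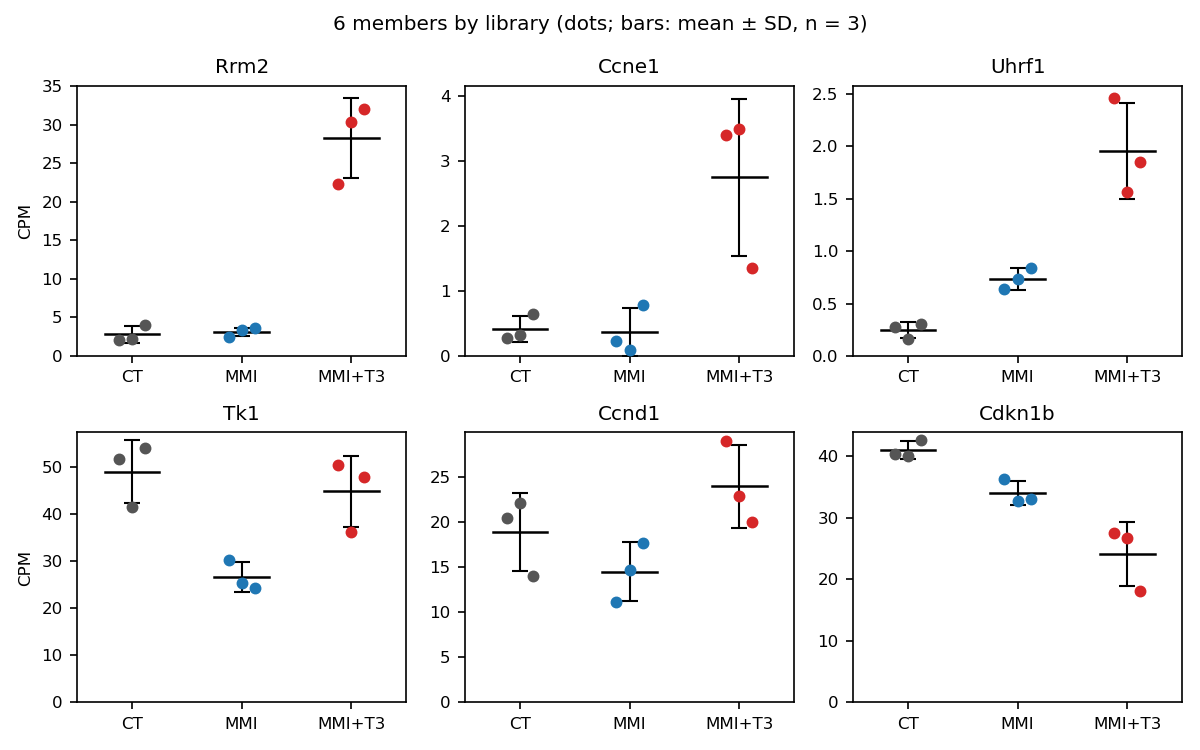
CPM of Rrm2, Ccne1, Uhrf1, Tk1, Ccnd1 and Cdkn1b in each library (dots) of CT, MMI and MMI+T3, with the group mean (line) and SD (bar, n = 3). The Rrm2 libraries of MMI+T3 sit between 22.3 and 32.0 CPM and all others at or below 4.05 CPM, Tk1 is lowest in MMI, and Cdkn1b is lowest in MMI+T3.

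Of the 7 G1 cyclins and kinases, Ccne1 and Ccnd1 rose after T3. Ccne1, cyclin E1, which drives the passage from G1 to S with CDK2, lies at chr7:38097984-38107534 on the minus strand and had 6, 6 and 13 counts in the CT libraries, 5, 2 and 15 in MMI but 65, 72 and 28 in MMI+T3. In CPM these were 0.279, 0.329 and 0.65 in CT, 0.227, 0.0858 and 0.787 in MMI but 3.4, 3.5 and 1.36 in MMI+T3. All T3 libraries were above all others, with replicate 3 closest to them. The fold was 7.55 compared to MMI (log2 2.92 ± 0.65, adjusted p = 0.0109) and 6.43 compared to CT (log2 2.69 ± 0.5, adjusted p = 0.00308). Ccne1 entered both tests only through MMI+T3, where it was high, so these calls are not independent of the filter. Without MMI replicate 3 the log2 fold change compared to MMI was 4.09. Its paralog Ccne2, cyclin E2, did not pass, with 1.89 to 2.83 CPM in MMI and 1.26 to 1.8 CPM in MMI+T3 (log2 -0.55 ± 0.32, adjusted p = 0.291).

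Ccnd1, cyclin D1, the growth-signal sensor of G1, lies at chr7:144929931-144939925 on the minus strand. It had 20.5, 22.2 and 14.0 CPM in CT, 11.2, 14.7 and 17.7 CPM in MMI and 29.1, 22.9 and 20.1 CPM in MMI+T3. MMI+T3 did not overlap with MMI but did with CT. Ccnd1 was 1.63-fold higher in MMI+T3 than in MMI (log2 0.71 ± 0.2, adjusted p = 0.033). The call was lost when MMI replicate 1 (adjusted p = 0.11), MMI replicate 2 (0.0652), MMI+T3 replicate 1 (0.139) or MMI+T3 replicate 2 (0.0621) was left out. Exons of LTO1 overlap Ccnd1 on the other strand, and LTO1 had a log2 fold change of 0.41 in the same comparison (adjusted p = 0.0924).

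Ccnd3, cyclin D3, was at 43.3, 48.3 and 51.1 CPM in CT, 63.9, 60.2 and 75.8 CPM in MMI and 59.0, 57.2 and 64.1 CPM in MMI+T3. It was low in CT, and MMI and MMI+T3 overlapped. By edgeR it passed between MMI+T3 and CT (1.25-fold, log2 0.33 ± 0.1, adjusted p = 0.033), and that call was lost without any of CT replicates 1, 2 and 3 or MMI+T3 replicates 1 and 3 (adjusted p = 0.0552 to 0.117), and in a fit of all 9 libraries (0.0678). Between MMI and CT the log2 fold change was 0.5 ± 0.13 and just missed the threshold (adjusted p = 0.0544), which it passed by DESeq2 (0.0182), in a fit of all 9 libraries (0.03), with the replicate block (0.0332), with upper quartile scaling (0.0489) and without MMI replicate 2 (0.0447). Exons of Bysl overlap it on the other strand, and Bysl was higher in MMI+T3 compared to CT (log2 0.48, adjusted p = 0.008). Cdk4, the partner kinase of the D cyclins, had 35.7, 38.9 and 37.9 CPM in CT, 40.4, 37.7 and 45.1 CPM in MMI and 39.4, 33.9 and 34.5 CPM in MMI+T3, and its groups overlapped throughout. Cdk2, the partner of cyclin E, at 13 to 20.1 CPM, and Cdk6, at 37.9 to 51.9 CPM, did not pass either, with log2 fold changes between -0.31 and 0.19 in the 3 comparisons.

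Of the 3 CDK inhibitors, Cdkn1b, which encodes p27, fell between CT and MMI+T3. It had 40.3, 40.0 and 42.6 CPM in CT, 36.2, 32.7 and 33.0 CPM in MMI and 27.5, 26.7 and 18.1 CPM in MMI+T3. The 3 groups did not overlap with each other. The level in MMI+T3 was 1.71-fold lower than in CT (log2 -0.77 ± 0.15, adjusted p = 0.00331). Compared to MMI the log2 fold change was -0.51 ± 0.16 and just missed the threshold (adjusted p = 0.0549), which it passed by DESeq2 (0.0394) and limma-voom (0.0477). Cdkn1a, which encodes p21 and is a p53 target, had 30.9, 11.5 and 13.5 CPM in CT, 19.3, 37.1 and 28.2 CPM in MMI and 15.4, 20.0 and 44.1 CPM in MMI+T3. Its spread within each group was wide and all groups overlapped (adjusted p = 0.883 between MMI+T3 and MMI), although without CT replicate 1 it passed as higher in MMI than in CT (0.0361). Cdkn2c, the p18 inhibitor of CDK4 and CDK6, had 7.64, 5.54 and 5.6 CPM in CT, 5.22, 5.67 and 4.57 CPM in MMI and 5.59, 7.63 and 10.7 CPM in MMI+T3, with overlapping groups (log2 0.61 ± 0.25 compared to MMI, adjusted p = 0.128).

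Of the 5 transcription factors, E2f2, an activator E2F, was the one called by edgeR with all libraries of the groups compared. Its level was 1.12, 1.43 and 0.7 CPM in CT, 1.45, 2.83 and 0.997 CPM in MMI and 3.29, 4.08 and 2.48 CPM in MMI+T3, above all CT libraries but overlapping with MMI. It was 3.02-fold higher in MMI+T3 than in CT (log2 1.59 ± 0.35, adjusted p = 0.00761), and the log2 fold change compared to MMI was 0.87 ± 0.39 (adjusted p = 0.164, but 0.0358 without MMI replicate 2). E2f1 had 5.4, 5.32 and 4.8 CPM in CT, 6.08, 7.3 and 8.14 CPM in MMI and 8.0, 7.78 and 5.45 CPM in MMI+T3. CT was lowest, but no comparison passed with all libraries (adjusted p = 0.205 between MMI and CT, 0.131 between MMI+T3 and CT, the latter 0.0449 without MMI+T3 replicate 3). E2f8, a repressor E2F, was 2.24 to 4.45 CPM in CT, 0.515 to 2.36 CPM in MMI and 2.09 to 5.91 CPM in MMI+T3, with no call by edgeR with all libraries. It passed as higher in MMI+T3 than in MMI by DESeq2 (adjusted p = 0.0488), with the replicate block (0.0173) and without MMI replicate 1 (0.0391), and as lower in MMI than in CT by DESeq2 (0.0298) and without MMI replicate 1 (0.0288).

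Foxm1, which drives mitotic genes, had 5 to 21 counts per library, which gave 0.279, 0.494 and 0.5 CPM in CT, 0.363, 0.215 and 1.05 CPM in MMI and 0.889, 1.02 and 0.827 CPM in MMI+T3. MMI+T3 overlapped with MMI through MMI replicate 3 (log2 0.75 ± 0.57, adjusted p = 0.424). Myc, a growth regulator, had 9.36, 34.3 and 6.45 CPM in CT, 12.8, 11.3 and 9.19 CPM in MMI and 16.4, 8.89 and 8.51 CPM in MMI+T3. One CT library stood apart, and the log2 fold change between MMI and CT turned from -0.56 to 0.5 without CT replicate 2, so no direction can be given.

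Of the 11 replication genes, Mcm2 and Mcm6, subunits of the helicase that opens the DNA, passed as higher in MMI compared to CT. Mcm2 had 3.07, 4.83 and 5.1 CPM in CT, 7.12, 10 and 8.82 CPM in MMI and 9.15, 9.09 and 6.13 CPM in MMI+T3. Mcm6 had 4.33, 4.28 and 5.45 CPM in CT, 7.62, 8.93 and 9.55 CPM in MMI and 14.3, 14.0 and 5.54 CPM in MMI+T3. For both genes CT was the lowest group, and MMI+T3 replicate 3 was the lowest of its group. Mcm2 was 2.02-fold higher in MMI than in CT (log2 1.02 ± 0.24, adjusted p = 0.0327) and Mcm6 1.88-fold (log2 0.91 ± 0.2, adjusted p = 0.0226). The Mcm2 call was lost without CT replicate 1, 2 or 3 or MMI replicate 2 or 3 (adjusted p = 0.0584 to 0.0969). The Mcm6 call was lost without CT replicate 1 (0.08), CT replicate 2 (0.115) or MMI replicate 2 (0.0518), and in a fit of all 9 libraries (0.101).

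Between MMI+T3 and CT, 5 of the 10 replication genes tested were higher, compared to 13.3% of all genes, and 4 of the 5 were MCM subunits. Mcm5 had 1.58, 1.92 and 3.7 CPM in CT, 4.08, 4.25 and 3.57 CPM in MMI and 8.31, 9.52 and 4.23 CPM in MMI+T3, and Mcm3 had 4.56, 5.38 and 5.35 CPM in CT, 6.58, 7.12 and 6.09 CPM in MMI and 7.89, 12.0 and 8.07 CPM in MMI+T3. Neither gene overlapped between MMI+T3 and CT. The folds were 3.04 for Mcm5 (log2 1.6 ± 0.37, adjusted p = 0.00983), 2.39 for Mcm6 (log2 1.25 ± 0.32, adjusted p = 0.0154), 1.86 for Mcm2 (log2 0.9 ± 0.24, adjusted p = 0.0206) and 1.82 for Mcm3 (log2 0.86 ± 0.2, adjusted p = 0.0112). Mcm2 lost the call without CT replicate 1 (0.0574), MMI+T3 replicate 1 (0.07) or MMI+T3 replicate 2 (0.0626), and Mcm6 without CT replicate 2 (0.0567), MMI+T3 replicate 1 (0.0542) or MMI+T3 replicate 2 (0.0516), and by limma-voom (0.0526). Mcm4, at 3.55 to 8.71 CPM, and Mcm7, at 14.3 to 22.2 CPM over the 9 libraries, had log2 fold changes of -0.06 and 0.06 and did not pass.

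Between MMI+T3 and MMI, 0 of the 6 MCM subunits passed by edgeR (unadjusted p under 0.05 for Mcm3 and Mcm5, and Mcm5 passed by DESeq2 with an adjusted p of 0.0285). The log2 fold changes ran from -0.11 for Mcm2 to 0.87 for Mcm5 (adjusted p = 0.0637). Without MMI+T3 replicate 3, Mcm5 and Mcm6 passed, with log2 fold changes of 1.15 and 0.69 and adjusted p of 0.00789 and 0.0395. That library was the lowest of its group for 29 of the 48 genes and for 9 of the 11 replication genes, compared to 39.7% of all genes for which it was the lowest, although it had the highest Rrm2 level. Summed over the 11 replication genes, it had 78.3 CPM, compared to 113 and 122 CPM in the other MMI+T3 libraries, 89.1 to 102 CPM in MMI and 76.3 to 85.5 CPM in CT.

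**Figure D4:**
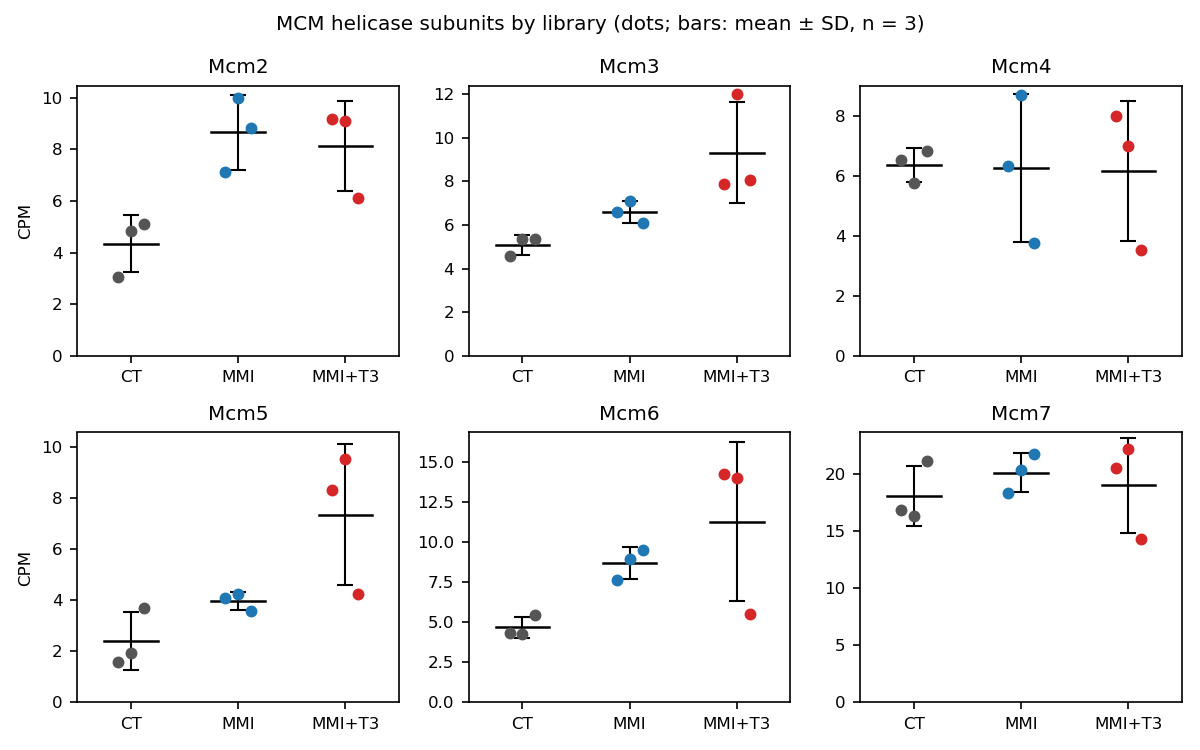
CPM of the 6 MCM helicase subunits in each library (dots) of CT, MMI and MMI+T3, with the group mean (line) and SD (bar, n = 3). Mcm2, Mcm3, Mcm5 and Mcm6 have their lowest means in CT, Mcm4 and Mcm7 overlap between groups, and for Mcm6 2 T3 libraries reach 14.0 and 14.3 CPM while the other has 5.54 CPM.

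Uhrf1, which couples DNA methylation to replication, lies at chr17:56303321-56323486 on the plus strand and had 6, 3 and 6 counts in CT, 14, 17 and 16 in MMI but 47, 32 and 38 in MMI+T3. The corresponding levels were 0.279, 0.165 and 0.3 CPM, then 0.635, 0.73 and 0.84 CPM, and 2.46, 1.56 and 1.85 CPM. None of the 3 groups overlapped with another. Uhrf1 was 2.61-fold higher in MMI+T3 than in MMI (log2 1.39 ± 0.38, adjusted p = 0.0281) and 7.58-fold higher than in CT (log2 2.92 ± 0.44, adjusted p = 0.000817). It entered the test with CT only through MMI+T3, where it was high. The call compared to MMI was lost without MMI replicate 1 (0.0904), MMI replicate 2 (0.0687), MMI+T3 replicate 1 (0.13) or MMI+T3 replicate 3 (0.0595). Between MMI and CT the log2 fold change was 1.55 ± 0.5 (adjusted p = 0.115).

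Pcna had 37.3, 37.5 and 34.6 CPM in CT, 34.0, 36.3 and 33.1 CPM in MMI and 37.0, 41.4 and 32.1 CPM in MMI+T3. Its groups overlapped, with a log2 fold change of 0.08 ± 0.13 between MMI+T3 and MMI (adjusted p = 0.748). Chek1, the replication checkpoint kinase, was 0.419 to 1.04 CPM in CT, 1.72 to 3.41 CPM in MMI and 0.438 to 1.46 CPM in MMI+T3, and neither difference passed by edgeR (adjusted p = 0.0552 between MMI and CT, 0.0656 between MMI+T3 and MMI). By DESeq2 it passed as higher in MMI than in CT (0.00816) and as lower in MMI+T3 than in MMI (0.0269). The difference between MMI and CT also passed by edgeR with the replicate block (log2 1.68, 0.0222) and without MMI replicate 1 (log2 1.86, 0.0485). Cdt1, a loader of the helicase, had 1.44 to 2.03 CPM in CT, 2.63 to 3.57 CPM in MMI and 1.9 to 3.61 CPM in MMI+T3, with no call with all libraries (higher in MMI+T3 than in CT without MMI+T3 replicate 3, adjusted p = 0.0402). Cdc6, its partner, had between 1 and 16 counts per library and was not tested.

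The 18 mitotic genes were at low levels in all groups, and 0 of the 15 tested between MMI+T3 and MMI passed by edgeR, DESeq2 or limma-voom. At an unadjusted p under 0.05 there were 4, Aurka, Cdc20, Ube2c and Top2a, compared to 4226 of all 14109 genes tested. Of the 15, 14 had a positive log2 fold change, with a median of 0.71, compared to 47.8% of all genes tested with a positive value. Plk1, Aurka, Ube2c, Bub1, Bub1b and Prc1 each had an MMI library under 10 counts and entered this test only through MMI+T3. That favours a positive sign, so the signs, and the unadjusted p of Aurka and Ube2c, are not independent of the filter. Mki67 had 0.699, 1.92 and 2.4 CPM in CT, 2.68, 1.63 and 4.25 CPM in MMI and 4.65, 6.41 and 3.11 CPM in MMI+T3. MMI+T3 lay above CT, but overlapped with MMI. The log2 fold change was 1.5 ± 0.42 compared to CT (2.82-fold, adjusted p = 0.0252) and 0.71 ± 0.38 compared to MMI (adjusted p = 0.236). The call compared to CT was lost without CT replicate 2 (0.057), MMI+T3 replicate 1 (0.0521) or MMI+T3 replicate 2 (0.0894).

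Top2a, the topoisomerase that untangles chromosomes, had 2.24, 2.08 and 1.95 CPM in CT, 2.4, 1.42 and 2.83 CPM in MMI and 2.93, 5.69 and 3.7 CPM in MMI+T3. The T3 libraries lay above all others. It was 1.95-fold higher in MMI+T3 than in CT (log2 0.96 ± 0.3, adjusted p = 0.0365), a call lost by limma-voom (0.0544), in a fit of all 9 libraries (0.053) and without any 1 of CT replicates 1 to 3 or MMI+T3 replicates 2 and 3 (0.0509 to 0.154), and compared to MMI it did not pass (log2 0.87 ± 0.35, adjusted p = 0.119). Ube2c, the ubiquitin-conjugating enzyme of the anaphase-promoting complex, had 2, 6 and 4 counts in CT, 9, 7 and 14 in MMI but 15, 29 and 24 in MMI+T3. In CPM it was 0.0931 to 0.329 in CT, 0.3 to 0.735 in MMI and 0.784 to 1.41 in MMI+T3, with no overlap between MMI+T3 and either group. It was 5.36-fold higher in MMI+T3 than in CT (log2 2.42 ± 0.54, adjusted p = 0.00837), while compared to MMI it did not pass (log2 1.21 ± 0.49, adjusted p = 0.121). Ube2c entered the test with CT only through MMI+T3, where it was high. Exons of Tnnc2 on the other strand overlap Ube2c, and those of the small RNA gene Gm23451 overlap Top2a on the same strand.

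Cdk1 had 0.466, 0.658 and 1.1 CPM in CT, 0.771, 0.858 and 1.21 CPM in MMI and 1.62, 1.46 and 0.924 CPM in MMI+T3, and its cyclin Ccna2 had 1.35, 0.823 and 0.3 CPM in CT, 1.27, 0.816 and 0.997 CPM in MMI and 1.72, 1.65 and 1.26 CPM in MMI+T3. Both overlapped between all groups and did not pass (adjusted p = 0.472 and 0.342 compared to MMI). Ccnb1, cyclin B1, had 1, 1 and 3 counts in CT, 3, 2 and 1 in MMI but 9, 15 and 25 in MMI+T3. Every T3 library was above the others, but counts this low were left out of the test, and with no filter its adjusted p was 0.0111 compared to MMI and 0.00884 compared to CT. The gene has a named pseudogene, Ccnb1-ps, so reads could be split between copies. Birc5, survivin, had its highest levels in CT, with 1.82 to 2.52 CPM in CT, 0.952 to 1.15 CPM in MMI and 1.05 to 1.65 CPM in MMI+T3, without a call (adjusted p = 0.115 between MMI and CT). The remaining mitotic genes (Ccnb2, Plk1, Aurka, Aurkb, Cdc20, Bub1, Bub1b, Cenpe, Kif11, Kif20a and Prc1) did not pass by edgeR in any comparison they were tested in, although Cdc20 passed as higher in MMI+T3 than in CT by DESeq2 (log2 1.26, adjusted p = 0.0435) and by edgeR without MMI+T3 replicate 3 (1.54, 0.0237). The highest level of any of them in a library was 2.35 CPM, for Cdc20.

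The companion genes of the same machinery, 143 genes fixed as lists for origin loading, polymerases and fork, nucleotide and chromatin supply, G1/S and mitosis, were also counted. Between MMI+T3 and MMI, 6 of 115 tested were higher (5.22%, compared to 9.83% of all genes) and 4 lower (3.48%, compared to 7.18%). Between MMI and CT 2 of 109 were higher (1.83%, compared to 2.48%) and 1 lower (0.917%, compared to 2.8%), and between MMI+T3 and CT 17 of 113 were higher (15.0%, compared to 13.3%) and 14 lower (12.4%, compared to 12.3%). With the lists pooled, these shares were near or below those of all genes. The pooled medians were 0.06, 0.12 and 0.19. Between MMI+T3 and CT the lists differed. Of the mitosis genes, 8 of 36 were higher (22.2%) and 3 lower (8.33%), with a median of 0.52. Of the origin loading genes, 1 of 18 was higher (5.56%) and 4 lower (22.2%). Of the G1/S genes, 2 of 24 were higher (8.33%) and 5 lower (20.8%). Between MMI+T3 and MMI, 30 of the 38 mitosis genes tested had a positive log2 fold change, compared to 47.8% of all genes tested, with a median of 0.3. Only these 38 of the 53 mitosis genes in the data passed the filter. How many of them entered only through MMI+T3, which favours a positive sign, was not counted. Mcm10, which helps to start the loaded helicase, was 45.4, 84.8 and 86.0 CPM in CT, 59.7, 44.6 and 60.2 CPM in MMI and 16.3, 9.23 and 8.66 CPM in MMI+T3. It was 4.9-fold lower in MMI+T3 than in MMI (log2 -2.29 ± 0.24, adjusted p = 7.69e-05), and all T3 libraries lay below all others. Ccnf, cyclin F, fell too (log2 -1.58 ± 0.2, adjusted p = 0.000332), from 16.6 to 23 CPM in MMI to 5.74 to 8.7 CPM in MMI+T3. Shmt1, a folate enzyme that supplies thymidylate synthesis, rose from 145 to 207 CPM in MMI to 435 to 492 CPM in MMI+T3 (log2 1.33 ± 0.16, adjusted p = 0.000241).

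Of 20 p53 target genes, 2 of 19 tested were higher between MMI+T3 and MMI (10.5%, compared to 9.83% of all genes). Another 3 were lower (15.8%, compared to 7.18%). Their median log2 fold change was -0.18, compared to -0.02 over all genes tested. Gadd45a, a growth arrest and DNA damage gene, rose 3.9-fold (log2 1.96 ± 0.25, adjusted p = 0.000374), from 3.58 to 7.17 CPM in MMI to 17.4 to 25.7 CPM in MMI+T3. Bbc3, which encodes the proapoptotic protein PUMA, was 24.9 to 26.6 CPM in CT, 11.5 to 12.6 CPM in MMI and 21.7 to 29.1 CPM in MMI+T3, being lower in MMI than in CT (log2 -1.05 ± 0.13, adjusted p = 0.000791) and higher in MMI+T3 than in MMI (log2 1.01 ± 0.15, adjusted p = 0.00105). Btg2, an antiproliferative gene, fell from 18.7 to 19.8 CPM in MMI to 11.5 to 11.8 CPM in MMI+T3 (log2 -0.75 ± 0.13, adjusted p = 0.00305). Cdkn1c, Ccng2 and Tfdp1, given next, are companion genes of the G1/S list and were not among the p53 targets counted. In MMI compared to CT, Cdkn1c, which encodes the p57 inhibitor, was 3.73-fold higher (1.72 to 1.95 CPM in CT and 4.62 to 8.84 CPM in MMI, adjusted p = 0.0027) and the p53 target Gadd45b 4.64-fold higher (adjusted p = 0.0104). Ccng2, an atypical cyclin linked to quiescence, was lower in MMI than in CT (log2 -0.64 ± 0.13, adjusted p = 0.0166) and in MMI+T3 than in CT (log2 -0.81 ± 0.11, adjusted p = 0.000388), and Tfdp1, the dimer partner of E2F, was higher in MMI than in CT (log2 0.61 ± 0.14, adjusted p = 0.0296). The calls between MMI and CT were lost for Ccng2 without CT replicate 1 (0.0683) or 3 (0.074), for Tfdp1 without CT replicate 1, 2 or 3 or MMI replicate 1 (0.0599 to 0.122), and for Gadd45b in a fit of all 9 libraries (0.0521).

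Marker genes of other liver cell types differed between the groups as well. In bulk tissue fewer cells of a type and less RNA per cell cannot be told apart. All 12 markers of Kupffer cells and macrophages were higher in MMI+T3 than in MMI and than in CT (medians of 1.7 and 1.48 on the log2 scale). Their summed level was 148 to 188 CPM in CT, 121 to 159 CPM in MMI and 348 to 679 CPM in MMI+T3. Clec4f, a Kupffer cell lectin, and Cd5l, a macrophage protein, reached 79.3 to 155 and 55.4 to 134 CPM after T3, compared to 22.9 to 34.0 and 15.6 to 26.0 CPM in MMI. The 11 hepatocyte markers summed to 46497 to 48969 CPM in CT, 36410 to 39999 CPM in MMI and 29687 to 30723 CPM in MMI+T3, with 1 higher and 4 lower between MMI+T3 and MMI. Alb alone, the albumin gene, had 18169 to 21334 CPM in MMI and 11616 to 13005 CPM in MMI+T3, and the median log2 fold change of the 11 was 0.08, with 7 of them above 0. Of the 12 endothelial markers, 4 passed as higher in MMI compared to CT, 7 in MMI+T3 compared to CT and 0 in MMI+T3 compared to MMI (edgeR, 0 also at an unadjusted p under 0.05), with sums of 244 to 319, 356 to 485 and 379 to 418 CPM. The B and plasma cell markers summed to 571 to 654 CPM in CT, 430 to 608 CPM in MMI and 887 to 995 CPM in MMI+T3, with 1 of 9 higher between MMI+T3 and MMI. Of these, Sdc1 had 316 to 399.7 CPM in CT, 198 to 357 CPM in MMI and 198 to 255 CPM in MMI+T3. Xbp1 had 224 to 319, 213 to 288 and 222 to 305 CPM in the same groups. T and NK cell markers summed to at most 12.3 CPM in any library, and the 4 neutrophil markers analysed to at most 2.51 CPM. Stellate cell markers summed to 353 to 561 CPM and cholangiocyte markers to 72.8 to 141 CPM over the 9 libraries, while the 6 erythroid markers analysed summed to 251 to 315 CPM in CT, 126 to 212 CPM in MMI and 124 to 209 CPM in MMI+T3. No marker analysed was at 0 in all libraries, and some of the neutrophil and erythroid markers were not analysed here.

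Set side by side, the 18 mitotic genes summed to 13.5, 15.6 and 18.2 CPM in CT, 15.8, 11.2 and 19.3 CPM in MMI and 26.1, 32.1 and 22.2 CPM in MMI+T3. In the same MMI+T3 libraries the macrophage markers summed to 464, 679 and 348 CPM. The T3 library with the highest mitotic sum also had the highest macrophage sum and that with the lowest had the lowest, in 3 libraries. The macrophage markers summed to 188, 148 and 159 CPM in CT and to 121, 159 and 156 CPM in MMI. In each of these groups the library with the lowest mitotic sum had the highest macrophage sum. The 11 G2/M and anaphase genes alone summed to 13.3, 13.0 and 9.39 CPM in MMI+T3, highest in replicate 1. The 7 genes of mitotic structure summed to 12.8, 19.1 and 12.8 CPM, highest in replicate 2. The Rrm2 level of the 3 libraries, 22.3, 30.4 and 32.0 CPM, had another order than the macrophage sums. The part that these cell types had in the levels of the 48 genes was not tested.

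**Figure D5:**
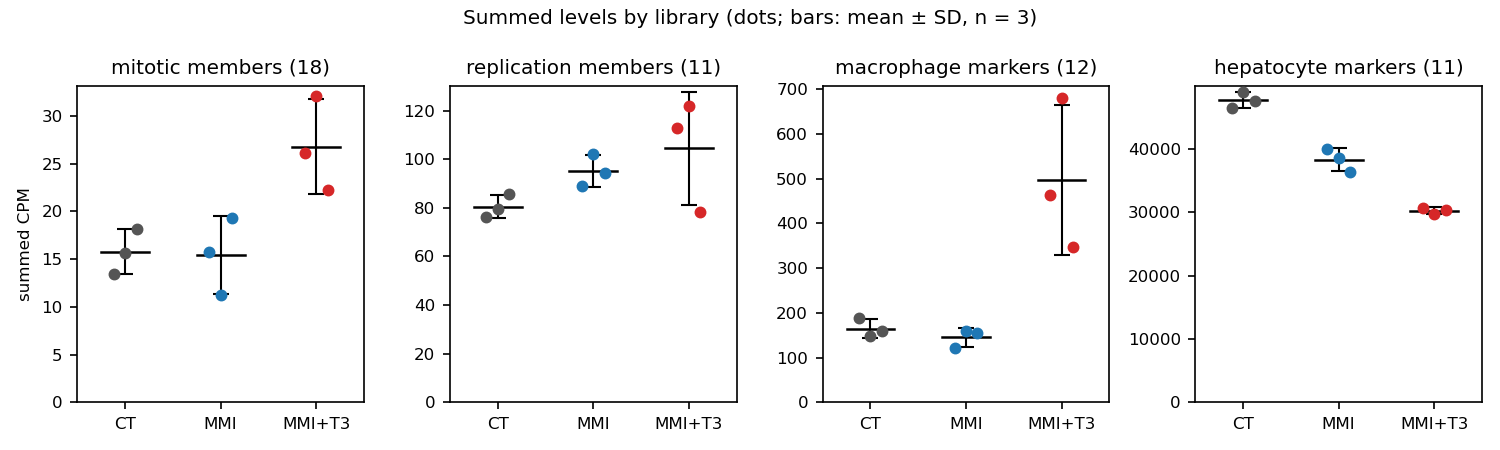
Summed CPM in each library (dots; line, group mean; bar, SD, n = 3) of the 18 mitotic genes, the 11 replication genes, the 12 macrophage markers and the 11 hepatocyte markers. The mitotic and macrophage sums are higher in all T3 libraries than in any other library, the replication sum of 1 T3 library (78.3 CPM) falls within the CT range, and the hepatocyte sum is lowest in MMI+T3.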

How the data were processed

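Liver RNA from 9 mouse samples (3 CT, 3 MMI, 3 MMI+T3) was sequenced from TruSeq libraries. Counts of reads per gene, as whole numbers, were deposited in a table for MMI and MMI+T3 and one for CT. The labels name HISAT2 2.1.0, HTSeq 0.6.1p1 and GRCm38, whereas the study's methods name STAR, so the aligner is not settled, and the strand setting is not given in the sources used here. No row of the table with MMI summed to fewer than 10 counts, and 23 symbols turned into dates were restored from the gene IDs. Gene positions and exon lengths are those of GENCODE M21, which held 18078 of 18081 IDs.

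Each comparison was fitted on its 6 libraries with edgeR 4.0.16 (R 4.3.3) by the quasi-likelihood test, with TMM scaling, filterByExpr (minimum count 10) and Benjamini-Hochberg adjustment over all genes tested at 0.05, two-sided. Comparisons with CT used the genes of both tables. CPM were scaled by TMM over all 9 libraries, and n is 3 unless stated. The standard error was the absolute log2 fold change over the square root of F. Scripts were tested on simulated counts with 200 changed genes. Alternatives were DESeq2 1.42.0, limma-voom (limma 3.58.1), other scalings and filters, all 9 libraries in one fit, the replicate number as a block, and leaving out each library.

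The genes and lists were chosen with earlier results of these data known. Values in every library are given for genes of the set past the threshold in any comparison and for 18 further fixed genes in part overlapping with them. Of companion and p53 genes, the 6 with the smallest adjusted p per comparison were eligible, and of marker lists that moved, the most abundant 2.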

Additional observations from a re-analysis of the deposited data

How the results depend on the processing

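Rrm2, Tk1 and Ccne1 kept their calls between MMI+T3 and MMI under every alternative in which they were tested, with log2 fold changes of 3.03 to 3.31, 0.65 to 0.87 and 2.42 to 4.09. The number of genes of the set that were lower was 1 with upper quartile scaling, limma-voom, all 9 libraries in one fit or the block, and 2 with DESeq2. With at least 50 counts in at least 3 libraries 25 of the set were tested and 3 were higher, since fewer genes entered. Between MMI and CT, DESeq2 called 4 higher and 2 lower in the set and 1154 of all genes, compared to 736, and leaving out a library gave 0 to 3 higher, 1 to 2 lower and 341 to 783 of all genes, the fewest without CT replicate 2. The causes were not tested. Leave-outs gave 4 to 6 higher between MMI+T3 and MMI, in part other genes, and 8 to 13 between MMI+T3 and CT.

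Replicate numbers gave no clear pairing of the samples. Same-numbered MMI and MMI+T3 libraries had deviations from their group means that correlated by 0.064, 0.003 and 0.167. Not every sample correlated best with its own number, but groups of 3 libraries cannot exclude a pairing. With the replicate number as a block, 2530, 984 and 3759 of all genes were called between MMI+T3 and MMI, MMI and CT, and MMI+T3 and CT. Without the block these were 2400, 736 and 3548. With it, 4 of the set were higher between MMI and CT, compared to 2 without it. Under the block the adjusted p of Ccnd1 was 0.0542.

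Values that were not called changed sign. Myc and Cdt1 between MMI+T3 and MMI had 0.0028 and 0.0028 with DESeq2 size factors, 0.0083 and 0.0096 with no filter, 0.0037 and 0.0028 with DESeq2, and 0.0086 and 0.0094 with all 9 libraries. Mcm4 between MMI and CT had 0.023 with upper quartile scaling and 0.0076 with at least 50 counts, and Kif11 had -0.013 with limma-voom. Pcna between MMI+T3 and CT had -0.003 with DESeq2 size factors, -0.0021 with no filter, -0.0029 with DESeq2, -0.0023 with limma-voom and -0.002 with the replicate block. Over leave-outs for MMI+T3 against MMI, Cdk6 ran from -0.012 to 0.12, Cdkn1a from -0.68 to 0.18, Cdt1 from -0.15 to 0.25, E2f1 from -0.14 to 0.12, Mcm2 from -0.23 to 0.06, Mcm4 from -0.3 to 0.26, Mcm7 from -0.23 to 0.07, Myc from -0.36 to 0.17, Pcna from -0.012 to 0.17 and Rrm1 from -0.35 to 0.012. For MMI against CT, Bub1b ran from -0.2 to 0.59, Ccna2 from -0.08 to 0.89, Cdc20 from -0.19 to 0.45, Gadd45a from -0.21 to 0.6, Kif11 from -0.28 to 0.24, Mcm4 from -0.32 to 0.25, Myc from -0.96 to 0.5, Prc1 from -1.39 to 0.23, Rrm1 from -0.21 to 0.13, Rrm2 from -0.0084 to 0.53 and Top2a from -0.12 to 0.34. For MMI+T3 against CT, Bbc3 ran from -0.18 to 0.038, Bub1 from -0.19 to 0.2, Ccnb2 from -0.09 to 0.48, Cdk6 from -0.15 to 0.024, Cdkn1a from -0.09 to 1.07, Cdkn1c from -0.08 to 0.51, Cenpe from -0.28 to 1.62, Chek1 from -0.11 to 0.63, E2f8 from -0.71 to 0.17, Gadd45b from -0.67 to 1.03, Kif20a from -0.5 to 0.05, Mcm4 from -0.28 to 0.22, Mcm7 from -0.07 to 0.22, Myc from -0.98 to 0.49 and Pcna from -0.09 to 0.09. None of these values was called in the comparison given. The causes were not tested. Mcm10, Shmt1, Ccnf, Gadd45a, Bbc3, Btg2 and Cdkn1c kept their calls between MMI+T3 and MMI under all 14 alternatives. The minimum of 50 counts left out genes with low counts, and whether more depth would change their calls was not tested.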
